A study of Rattus norvegicus with 82 samples.

Results

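The CCN family comprises secreted proteins of the extracellular matrix that act on cells rather than as scaffold. Its members were taken by symbol from the deposited gene table, in which 5 of 17337 genes carried the listed names, namely Ctgf (now Ccn2), Cyr61 (now Ccn1), Nov (now Ccn3), Wisp1 (now Ccn4) and Wisp2 (now Ccn5). CCN proteins bind integrins, heparan sulfate proteoglycans and growth factors. Ctgf is a transcriptional target of TGF-beta and of the mechanosensitive YAP/TAZ and TEAD factors and is widely used as a marker of fibrotic remodelling, Cyr61 is an immediate early gene that is also a YAP/TAZ target, Nov counteracts Ctgf in several models, and Wisp2 lacks the C-terminal domain of the other family members.

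The levels were measured by RNA-seq in cardiomyocytes of 41 rats, with the left (LV) and right (RV) ventricles parted after a first digestion of the heart, which gave 82 libraries in 12 groups. The rats were the F1 offspring of Wistar Kyoto mothers and Lewis fathers, with no genetic alteration named, and were sham-operated or carried a clip. A clip on the pulmonary artery (PAB) raises the load of the RV, and 1 on the aorta (AOB) that of the LV. By the labels the hypertrophic groups Sham-H (7 animals), PAB-H (6) and AOB-H (6) were 11 weeks old, 7 weeks after surgery. The failing stage comprised Sham-F (9 animals) and AOB-F (7) at 31 weeks of age, 26 weeks after surgery, and PAB-F (6) at 28 weeks of age, 22 weeks after surgery, so that the PAB-F group was younger than Sham-F, and the effect of that gap cannot be told apart from that of the band. Each group held both sexes, with 2 to 4 males. The ages of the labels differ from those of the article.

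Cardiomyocytes were enriched by collagenase digestion, filtration and centrifugation, without sorting. Library totals ranged from 6675287 to 19665439 counts. All 8 markers of ventricular cardiomyocytes were abundant, with mean levels per length between 697 (Ryr2) and 6734 (Myh6) FPKM. RNA of other cells was present. Mean levels were 1.59 to 61.3 FPKM for 8 of 9 fibroblast markers, 16.5 to 64.02 FPKM for 8 endothelial markers, 8.99 to 131 FPKM for 7 mural cell markers and 0.771 to 8.36 FPKM for 7 macrophage markers. The other fibroblast marker, Col1a2, was at 0 in 71 of 82 libraries although Col1a1 was found in every library. In such bulk samples fewer cells of a type and less RNA per cell cannot be told apart.

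A promoter sequence was at hand for 2 of the 5 members, Ctgf and Cyr61, which were also the most abundant. They are shown because both genes are textbook targets of TEAD factors. Each stretch holds the 250 bases before the start of transcription, from RefSeq on build GRCr8, printed 5′ to 3′ on the strand of the gene, with matches to the TEAD motif GGAATG on either strand in capitals. Ctgf lies on the minus strand at chr1:22624615-22624864, Cyr61 on the minus strand at chr2:237225690-237225939.
Ctgf: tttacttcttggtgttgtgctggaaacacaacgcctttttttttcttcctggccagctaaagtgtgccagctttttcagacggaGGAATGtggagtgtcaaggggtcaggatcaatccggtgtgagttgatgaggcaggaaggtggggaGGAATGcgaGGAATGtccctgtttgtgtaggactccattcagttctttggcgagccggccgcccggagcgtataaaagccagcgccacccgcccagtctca
Cyr61: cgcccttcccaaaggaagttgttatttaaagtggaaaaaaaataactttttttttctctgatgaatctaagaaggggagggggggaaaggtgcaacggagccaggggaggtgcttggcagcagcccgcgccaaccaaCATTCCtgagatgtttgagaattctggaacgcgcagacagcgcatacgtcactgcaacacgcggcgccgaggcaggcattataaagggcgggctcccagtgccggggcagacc
The Ctgf stretch held 3 matches to the TEAD motif, all on the strand of the gene, beginning 166, 101 and 92 bases before the start. The Cyr61 stretch held 1 match, on the opposite strand, beginning 113 bases before the start. Of 33469 rat promoters of this length 12.1% held at least 1 such match and 0.0807% at least 3. The SMAD motif CAGAC occurred once in the Ctgf stretch and at 2 places in the Cyr61 stretch, compared with 42.9% of all promoters holding it at least once. The AP-1 motif TGANTCA (6.34% of all promoters) and the CArG box of serum response factor (1.5%) had no match in either stretch. The motifs were searched on both strands and do not overlap each other in these stretches. The counts were made by the authors on an earlier rat build, and no read positions were used here.

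Abundance separated the family into an abundant pair and 3 rare genes. Compared per length, Cyr61 was the most abundant member, with a mean of 362 FPKM over all libraries and a range from 171 to 753 FPKM, which placed it 186th among the genes of the table. Ctgf followed with a mean of 102 FPKM and a range from 38.4 to 529 FPKM. Nov and Wisp2 reached 2.22 and 0.945 FPKM on average and Wisp1 0.0598 FPKM. Ctgf was thus more abundant than any marker of the fibroblast list, of which the highest, Dcn, averaged 61.3 FPKM. The ratio of Cyr61 to Ctgf FPKM had a median of 5.82 in RV Sham-H and 5.17 in RV Sham-F libraries, but of 2.05 in RV PAB-H and 1.20 in RV PAB-F libraries. In 2 of 6 RV PAB-F libraries Ctgf exceeded Cyr61, which was the case in no library of any other group.

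All further levels are normalized counts, that is raw counts divided by the library's effective size and multiplied by the mean effective size, which compare libraries but not genes. Differences are log2 fold changes with their standard error from an edgeR quasi-likelihood fit, called at an adjusted p under 0.05 over all 11954 genes tested. Of the 5 members 4 passed the filter on low counts, and Wisp1 did not.

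Ctgf rose in the RV upon PAB, at both stages. In RV Sham-H libraries its normalized counts lay between 1426 and 2656, with a median of 1857. The 6 RV PAB-H libraries had 2558, 4234, 5354, 2995, 5577 and 3329. A single sham library stood above the lowest of the banded ones, and the others did not overlap. Ctgf was 2.05-fold higher, with a log2 fold change of 1.04 (SE 0.27, edgeR adjusted p = 0.0197). In this comparison 4.5% of all genes tested were called. Without RV PAB-H replicate 2, the library with the highest fibroblast markers of its group, the change was 1.02 and the adjusted p 0.128.

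In failure the RV level was higher and more variable. The 9 RV Sham-F libraries lay between 1364 and 2622, with a median of 1742, whereas the 6 RV PAB-F libraries had 16944, 8997, 1939, 6057, 8497 and 3341. Replicate 3 of the banded animals lay within the sham range and the other 5 libraries above it. The mean rose from 1866 ± 392.3 (SD, n = 9) to 7629 ± 5341 (SD, n = 6). The log2 fold change was 2.03 (SE 0.26, edgeR adjusted p = 1.74e-08), where 11.1% of all genes tested were called. Without replicate 1, the highest library, it was 1.63 (adjusted p = 5.03e-06), and Ctgf was called whichever library was left out. The increase at the F stage exceeded that at the H stage by 0.99 (SE 0.38), a difference that was not called (adjusted p = 0.9997). No gene was called for that difference by edgeR, whereas 177 genes had an unadjusted p under 0.05.

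**Figure D1:**
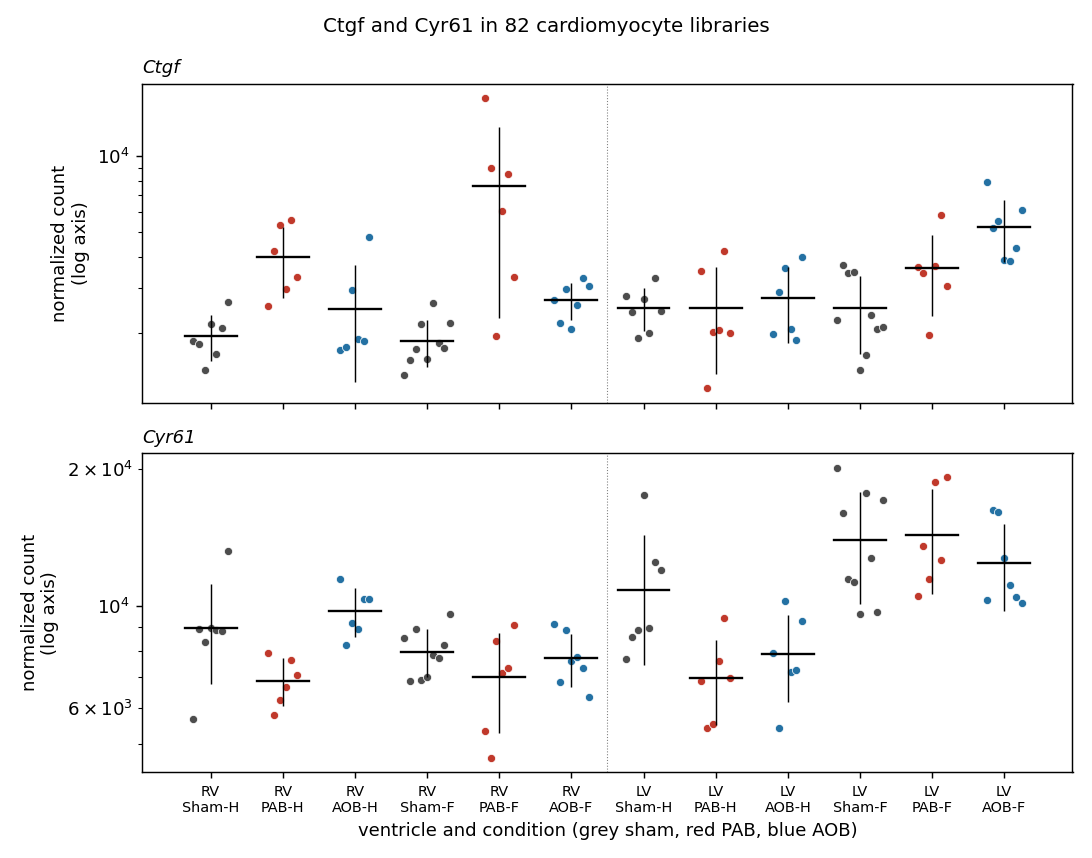
Normalized counts (log axis) of Ctgf, top, and Cyr61, bottom, in each of 82 libraries, by ventricle and condition; points are libraries, horizontal lines the group means and vertical lines 1 SD on either side. Ctgf stands highest in RV PAB-F (mean 7629) and LV AOB-F (mean 5268), while Cyr61 stands highest in the 3 LV groups of the F stage (means 12462 to 14353).

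In the LV upon AOB, Ctgf differed from sham at the F stage and not detectably at the H stage. The 7 LV AOB-F libraries had 7934, 5200, 5537, 3886, 3858, 4345 and 6114, compared with 1423 to 3727 and a median of 2255 in LV Sham-F, without overlap. The log2 fold change was 1.07 (SE 0.25, edgeR adjusted p = 0.0025). In this comparison 12.9% of all genes tested were called and 0.0837% did not overlap between the groups. LV AOB-H libraries lay between 1871 and 3999 and LV Sham-H libraries between 1918 and 3299. The change there was 0.12 (95% interval -0.42 to 0.66, adjusted p = 0.836), in a comparison with 0.0167% of genes called. The change at F exceeded that at H by 0.95 (SE 0.37, adjusted p = 0.319), which was not called.

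In the ventricle that the band did not load directly, Ctgf was not called. Its log2 fold change was 0.53 (SE 0.26) in the LV upon PAB-F and 0.53 (SE 0.25) in the RV upon AOB-F, with an unadjusted edgeR p of 0.0435 and 0.0341 and an adjusted p of 0.9997 and 0.9999. It was 0.35 (SE 0.27) in the RV upon AOB-H and -0.01 (SE 0.27) in the LV upon PAB-H. No gene was called in 3 of these comparisons by edgeR or DESeq2, and 0.0669% of genes in the fourth, RV AOB-F. Unadjusted edgeR p-values under 0.05 were found for 305 genes in LV PAB-H, 171 in RV AOB-H, 454 in LV PAB-F and 517 in RV AOB-F.

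The difference between the loaded and the other ventricle was tested as such. Upon PAB-F the response of Ctgf in the RV exceeded that in the LV by 1.51 (SE 0.37, edgeR adjusted p = 0.048), where 0.351% of genes were called. This call depended on single libraries, since 10 of 30 fits that left out 1 library kept it. Without RV PAB-F replicate 1 the difference was 1.10 (adjusted p = 0.419). At PAB-H the difference was 1.05 (SE 0.39, adjusted p = 0.422) and upon AOB-F, LV minus RV, 0.54 (SE 0.35, adjusted p = 0.605), neither of which was called. With the animal as a block the difference was 1.20 (SE 0.29, adjusted p = 0.0163) upon PAB-F. It was 1.11 (SE 0.30, adjusted p = 0.0817) at PAB-H and 0.56 (SE 0.27, adjusted p = 0.342) upon AOB-F. The fits that left out 1 library had no block.

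Since both ventricles came from the same animals, the levels can also be read within animals. Ctgf was lower in the RV than in the LV in 6 of 7 Sham-H and 6 of 9 Sham-F animals, but higher in the RV in 5 of 6 PAB-H and 5 of 6 PAB-F animals. In AOB-F it was lower in the RV in 7 of 7 animals. Over all libraries the RV exceeded the LV by 1.08 (SE 0.29, adjusted p = 8.07e-04) in PAB-F and differed from it by -0.97 (SE 0.26, adjusted p = 0.00104) in AOB-F, where the libraries did not overlap. Without RV PAB-F replicate 1 the PAB-F difference was 0.68 (adjusted p = 0.0289). These fits did not pair the libraries by animal. With the animal as a block RV against LV gave 0.82 (SE 0.22, adjusted p = 0.00152) in PAB-F and -0.94 (SE 0.20, adjusted p = 8.77e-05) in AOB-F. In PAB-H it gave 0.74 (SE 0.22, adjusted p = 0.0787), which was not called. RV and LV differed in most genes at the F stage, with 61.1% called in PAB-F and 67.1% in AOB-F. In AOB-F 30.3% of all genes tested did not overlap between the ventricles. Fibroblast markers were called higher in the RV for 2 and lower for 3 of 8 in PAB-F, and lower for 6 of 8 in AOB-F, and their part was not tested. For Ctgf in Sham-F the difference was -0.42 (SE 0.23, adjusted p = 0.0925), with 74.3% of genes called, in Sham-H -0.37 (adjusted p = 0.308), with 21% called, and in PAB-H 0.68 (adjusted p = 0.377), with 0.125% called.

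Age did not move Ctgf detectably. Sham-F against Sham-H differed by -0.06 (95% interval -0.56 to 0.43) in the RV and by -0.01 (95% interval -0.50 to 0.48) in the LV. The order of its 12 group means ran from RV PAB-F (7629) through LV AOB-F (5268) and RV PAB-H (4008) down to RV Sham-F (1866). No neighbours differed at an adjusted p under 0.05. The order was made from the same means, so that this does not test it.

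**Figure D2:**
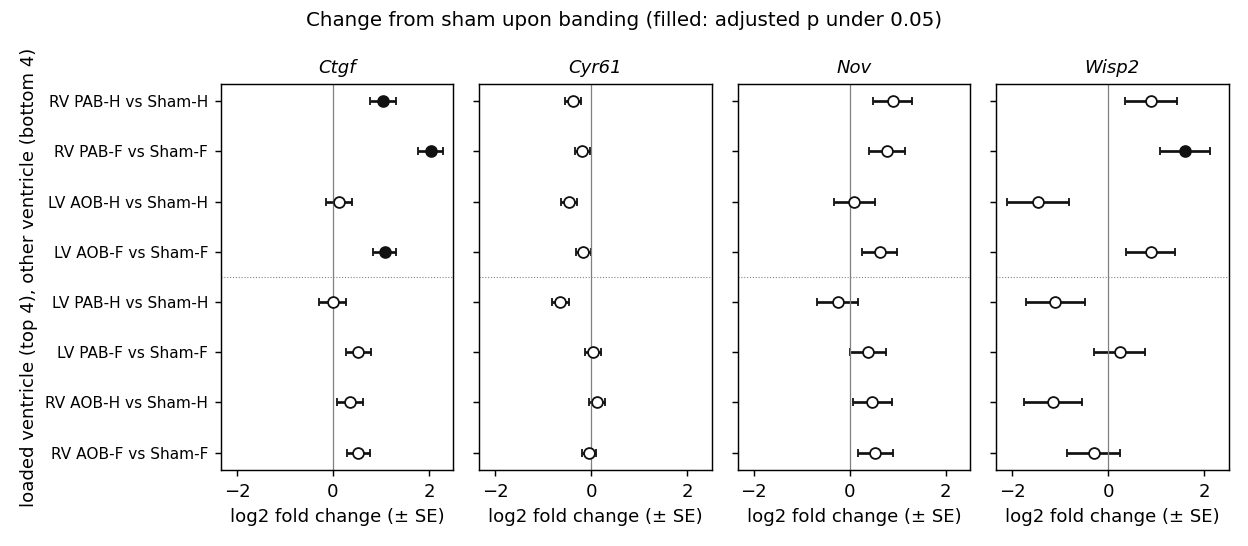
Log2 fold change against the sham group of the same stage and ventricle (x axis) for the 4 members tested in 8 comparisons (y axis), with bars of 1 SE; filled points have an adjusted p under 0.05. The 3 filled points of Ctgf, at 1.04, 2.03 and 1.07, belong to loaded ventricles, as does that of Wisp2 at 1.60, and Cyr61 and Nov have none.

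Among other targets of YAP/TAZ, Tgfb2 and Ccdc80 were called in each of the 3 comparisons where Ctgf rose. The list of other YAP/TAZ targets had 20 genes, of which 16 were tested and 4 (Foxf2, Dock5, Arhgef17, Rbms3) are not analysed here. Of the 16, 3 rose and 0 fell in RV PAB-H, 5 rose and 0 fell in RV PAB-F, and 4 rose and 0 fell in LV AOB-F. Over all genes tested 4.5%, 11.1% and 12.9% were called in the respective comparisons. In LV AOB-F these were 1541 genes, but 15 in a fit to the compared groups alone. Whether the list genes named for LV AOB-F, here and below, kept their call in that fit is not given. The median log2 fold change of the list was 0.46, 0.21 and 0.23, compared with 0.00, 0.02 and 0.04 over all genes tested. Tgfb2, a TGF-beta ligand, rose by 1.79 (SE 0.40), 2.59 (SE 0.36) and 2.04 (SE 0.35) in the respective comparisons. Axl, a receptor tyrosine kinase, rose by 1.277 in RV PAB-H and 0.88 in RV PAB-F. Ccdc80, a matrix protein, rose by 1.14, 0.87 and 0.86. Fjx1 rose by 1.07 in RV PAB-F, and Myof, a membrane repair protein, by 1.24 in LV AOB-F. Ankrd1, a stress-responsive sarcomere-associated cofactor, rose by 0.89 in LV AOB-F. In LV AOB-H 0 of 16 were called, in a comparison with 0.0167% of all genes called.

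In the core of the Hippo pathway kinases restrain YAP and TAZ and so their TEAD partners. Of 15 tested genes of this list 0 were called in RV PAB-H, where 4.5% of all genes tested were called. In RV PAB-F, with 11.1% called, 1 fell, namely Yap1 with a log2 fold change of -0.35 (SE 0.09, adjusted p = 0.00743). In LV AOB-F, with 12.9% called, 3 rose, namely Sav1 (0.58), Mob1a (0.46) and Stk4 (0.40). These counts are near the shares over all genes and are no result about the list. Tead4, Amot, Amotl1 and Wwc1 are not analysed here. Of 10 genes of TGF-beta signalling 2 rose in RV PAB-H, Tgfb2 and Tgfb3 (1.17), and the same pair rose in RV PAB-F, with 0.81 for Tgfb3. In LV AOB-F Tgfb2 and Smad2 (0.34), a signal transducer of the pathway, were among the genes that rose. The list medians were 0.26, 0.11 and 0.22. Tgfb2 belongs to both this list and that of the YAP/TAZ targets.

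Of 8 tested targets or components of serum response factor, Acta1, skeletal muscle actin, rose by 2.01 in RV PAB-H and 2.52 in RV PAB-F. Fhl2, a LIM-domain cofactor, had log2 fold changes of -0.45 (RV PAB-F) and -0.61 (LV AOB-F), both called, and the other tested genes of the list were not called in these comparisons. Among 13 tested receptors and partners of CCN proteins, Lrp1 (1.33) and Notch1 (0.84) rose in RV PAB-H, and Itga6 (0.56) and Igf2r (0.37) rose in RV PAB-F. In LV AOB-F 6 receptors rose and 0 fell. The largest changes were those of Itgam (2.37, SE 0.49) and Itgb2 (2.18, SE 0.52), the subunits of an integrin of myeloid cells, and of Itgb1 (1.13, SE 0.24), the common beta subunit. The list medians were 0.41, 0.55 and 0.36.

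Among markers of other cells, those of fibroblasts were called most often, in the RV upon PAB. Over all genes tested, 4.5% were called for RV PAB-H, 11.1% for RV PAB-F and 12.9% for LV AOB-F. At the F stage a single call in a list of 7 or 8 genes is near these shares and is no result about the list. Of 8 tested fibroblast markers 8 rose in RV PAB-H, 5 in RV PAB-F and 1, Postn, in LV AOB-F, with list medians of 1.40, 1.38 and 0.45. The summed fibroblast markers took 0.0229 to 0.0438% of the counts in RV Sham-H and 0.0336 to 0.288% in RV PAB-H. They took 0.0141 to 0.0483% in RV Sham-F and 0.0255 to 0.192% in RV PAB-F, and in the LV 0.0384 to 0.118% in Sham-F and 0.0628 to 0.132% in AOB-F. Macrophage markers were called higher for 0 of 7 genes in RV PAB-H, 3 upon PAB-F in the RV, where they took up to 0.0152% of the counts, and 3 upon AOB-F in the LV, where they took up to 0.0209%. Of 8 endothelial markers 2, 1 and 2 rose in RV PAB-H, RV PAB-F and LV AOB-F (medians 0.64, 0.59 and 0.50), and of 7 mural markers 1, 2 and 1 rose (medians 0.75, 0.28 and 0.31). Of 8 tested cardiomyocyte markers 0 were called in these 3 comparisons. The part of these cells in the change of Ctgf was not tested. Between libraries of the same group, Ctgf and the fibroblast score (the mean log2 level of the tested markers) had r = 0.24 (permutation p = 0.323, n = 41) and rho = -0.10 (permutation p = 0.601) in the RV, and r = 0.15 (permutation p = 0.38) in the LV. Without the 2 RV libraries farthest from the median score, RV PAB-H replicate 2 and RV PAB-F replicate 1, r was -0.00.

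Over all 82 libraries, the genes most like Ctgf were Tgfb2 (Pearson's r = 0.82), Ncam1 (0.82), a neural cell adhesion molecule, and Anxa5 (0.80), an annexin. The libraries of a group share its condition, so that these r describe differences between groups as well as between animals. No p is given for them.

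Cyr61 was not called upon banding but differed between the ventricles at the F stage. Its level was not called in any of the 8 comparisons of banded with sham animals. In RV PAB-F, where Ctgf rose, its 6 libraries lay between 4657 and 9119 with a median of 7239, and the 9 RV Sham-F libraries lay between 6878 and 9600 with a median of 7837. The log2 fold change was -0.18 (95% interval -0.51 to 0.14, adjusted p = 0.476). In LV AOB-F it was -0.16 (95% interval -0.47 to 0.14, adjusted p = 0.501). At the H stage it was -0.38 (SE 0.17, adjusted p = 0.177) in RV PAB-H and -0.46 (SE 0.17, adjusted p = 0.141) in LV AOB-H. The largest difference was found in LV PAB-H, with 5417 to 9446 against 7650 to 17514 in LV Sham-H. There the change was -0.64 (SE 0.17), with an unadjusted edgeR p of 3.66e-04 and an adjusted p of 0.991.

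The difference between the ventricles was called in the 3 conditions of the F stage. RV Sham-F libraries had 6878 to 9600 normalized counts and LV Sham-F libraries 9610 to 20096, without overlap. The log2 fold change, RV against LV, was -0.81 (SE 0.15, adjusted p = 8.72e-07), and Cyr61 was lower in the RV in 9 of 9 animals. In PAB-F the groups did not overlap either, with 4657 to 9119 in the RV and 10526 to 19209 in the LV, a change of -1.04 (SE 0.18, adjusted p = 1.50e-06) and the lower level in the RV in 6 of 6 animals. In AOB-F the RV libraries had 6328 to 9144 and the LV libraries 10172 to 16238, with a change of -0.70 (SE 0.16, adjusted p = 1.68e-04) and the lower level in the RV in 7 of 7 animals. These calls stand against a background in which 74.3%, 61.1% and 67.1% of all genes were called, and 41.8%, 23.2% and 30.3% did not overlap. The labels name no batch, and by the article the samples were collected at different times while the sequencing was run together, so that no values within batches can be given. The ventricles differed in far more genes at the F stage than at the H stage, and sham animals of both stages differed in 57.4% of genes in the LV and 0.0502% in the RV. Both ventricles of an animal came from 1 heart and share its time of collection. A difference in the later handling of RV and LV libraries cannot be told apart from ventricle. A difference in collection between the stages cannot be told apart from age.

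At the H stage the ventricles were not found to differ in Cyr61. RV against LV gave -0.28 (SE 0.16, adjusted p = 0.214) in Sham-H, -0.02 (SE 0.18, adjusted p = 0.969) in PAB-H and 0.31 (SE 0.18, adjusted p = 0.336) in AOB-H, where 7.98% of genes were called. The LV level rose with age in sham animals, from 10872 ± 3447 (SD, n = 7) to 13963 ± 3828 (SD, n = 9), by 0.36 on the log2 scale (SE 0.16, adjusted p = 0.0408). In this comparison 57.4% of all genes were called, and 8 of 16 fits that left out 1 library kept the call. In the RV the change with age was -0.17 (SE 0.15, adjusted p = 0.999), with 0.0502% of genes called. The difference of the changes with age, LV minus RV, was 0.54 (SE 0.22, adjusted p = 0.0415), with 41.6% of genes called, and was kept by 16 of 32 fits that left out 1 library. No neighbours in the order of its group means, from LV PAB-F (14353) to RV PAB-H (6877), differed at an adjusted p under 0.05. This does not test the order, which was made from the same means.

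**Figure D3:**
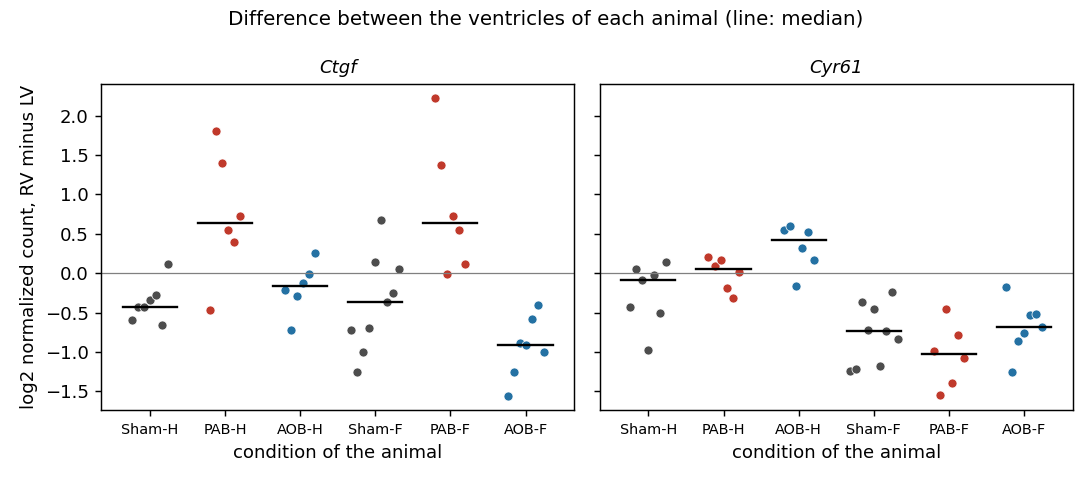
Log2 normalized count of the RV minus that of the LV of the same animal (y axis) for Ctgf, left, and Cyr61, right, by condition (x axis); points are animals and lines medians. The medians of Ctgf are 0.64 in PAB-H, 0.63 in PAB-F and -0.91 in AOB-F, whereas those of Cyr61 are -0.73, -1.03 and -0.68 in Sham-F, PAB-F and AOB-F with every animal below 0.

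The immediate early genes, transcription factors and feedback regulators induced within minutes of a stimulus, varied like Cyr61. The 3 genes most like Cyr61 over the 82 libraries were Jun (r = 0.91), Junb (0.84) and Btg2 (0.83). Between libraries of the same group, Cyr61 rose with the mean log2 level of 15 immediate early genes. In the RV Pearson's r was 0.71 (permutation p = 0.00021, adjusted p = 0.00202 over 48 tests, n = 41) and Spearman's rho was 0.62 (permutation p = 0.00018). Without the 2 libraries farthest from the median score r was 0.58. In the LV r was 0.85 and rho 0.83, each with a permutation p of 1e-05, the smallest that 100000 permutations can give (adjusted p = 0.00048), and r without the 2 farthest libraries was 0.85. Cyr61 is itself an immediate early gene but was not in the list. The hearts were digested with collagenase and minced before RNA was taken. The part of this handling in the levels of Cyr61 and of these genes was not tested. The authors sequenced whole hearts to check for an effect of the isolation, and those data were not used here.

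Genes of the list were also called lower in the RV. In RV against LV, 0 of 15 genes were called higher and 10 lower in Sham-F, 12 lower in PAB-F and 9 lower in AOB-F, with list medians of -0.74, -0.97 and -0.48. Over all 11954 genes tested the medians were -0.07, 0.03 and -0.05, and 4618, 3468 and 4198 were called lower. In either direction 74.3%, 61.1% and 67.1% of all genes were called, so that the number of calls alone is no result about the list. Whether their direction differs from that of all genes was not tested. With Sham-F, Ier2 (-1.59), Dusp1 (-1.50) and Nr4a1 (-0.92) had the largest differences. With age, 6 of 15 were called higher and 0 lower in the LV. Over all 11954 genes tested 3318 were called higher and 3542 lower, together 57.4%. Ier2 (0.82), Ier3 (0.65) and Nr4a1 (0.58) had the largest changes of the list. Upon banding Fos fell in RV PAB-H (-0.57, SE 0.17) and in RV PAB-F (-0.67, SE 0.16), Egr1 fell in RV PAB-F (-0.60, SE 0.21), and Myc rose in LV AOB-F (0.87, SE 0.27). Immediate early genes took 0.376 to 0.523% of the counts in RV Sham-F and 0.517 to 1.17% in LV Sham-F. The part of other cells in the difference of Cyr61 was not tested. In RV against LV in Sham-F, 6 of 8 endothelial and 5 of 7 mural markers were called lower, in a comparison with 74.3% of all genes called, with summed endothelial markers at 0.0702 to 0.120% of the counts in the RV and 0.174 to 0.401% in the LV. Within LV groups Cyr61 also rose with the mural score (r = 0.44, permutation p = 0.00581, adjusted p = 0.0209), while the corresponding RV value was 0.12 (permutation p = 0.432).

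For Ctgf no Pearson's r with a score passed the test with TMM factors, whereas rho with the immediate early score in the RV did. Its r with the cardiomyocyte score in the RV was -0.36 (permutation p = 0.113, adjusted p = 0.2), and -0.50 with library totals (permutation p = 0.0156, adjusted p = 0.0383). Its r with the immediate early score was -0.36 in the RV (permutation p = 0.0918, adjusted p = 0.184), with rho = -0.45 (permutation p = 0.0116, adjusted p = 0.0397), and 0.08 in the LV (permutation p = 0.636). Without the 2 libraries farthest from the median score the RV value of r was -0.50. Between Ctgf and Cyr61 themselves r was -0.27 in the RV (permutation p = 0.221) and 0.23 in the LV (permutation p = 0.156). Of 12 pairs of members tested in this way within groups, 0 had an adjusted p under 0.05. The lowest was that of Nov and Wisp2 in the RV (r = 0.47, permutation p = 0.0141, adjusted p = 0.17).

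Nov and Wisp2 were rare and uneven. Nov had 9 to 117 raw counts and Wisp2 2 to 144 raw counts in a library, each with at least 1 count in all 82 libraries. Nov was not called in any comparison. In RV PAB-H its libraries had 106, 64.5, 100.1, 43.8, 32.2 and 19.8 normalized counts, against 22.5 to 58.7 in RV Sham-H. Of the banded libraries 3 stood above the sham range and 1 below it. The log2 fold change was 0.89 (SE 0.40, adjusted p = 0.18). The RV PAB-F value was 0.78 (SE 0.38, adjusted p = 0.159), from 25.1 to 143 in banded and 21.8 to 88.6 in sham libraries. In LV AOB-F it was 0.62 (SE 0.36, adjusted p = 0.244) and in LV AOB-H 0.10 (SE 0.42, adjusted p = 0.92). Nov was higher in the RV than in the LV in 6 of 6 PAB-H animals, with a median difference of 0.77. The difference between the groups was 1.38 (SE 0.43, adjusted p = 0.177) and with the animal as a block 1.25 (SE 0.38, adjusted p = 0.0787).

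Wisp2 was called in 2 comparisons, each resting on single libraries. In RV PAB-F its libraries had 175, 35.7, 38.4, 20.7, 23.6 and 4.12 normalized counts, against 6.41 to 26.3 in RV Sham-F with a median of 14.8. Of the banded libraries 1 lay below and 3 lay above the sham range. The log2 fold change was 1.60 (SE 0.53, adjusted p = 0.0369). Replicate 1, with 175, was also the highest of the group for fibroblast markers. Without it the change was 0.61 (adjusted p = 0.589), and with sex as a covariate it was 1.21 (adjusted p = 0.0975). In AOB-F Wisp2 was lower in the RV, with 3.53 to 20.4, than in the LV, with 11.7 to 105, by -1.36 (SE 0.56, adjusted p = 0.0268). Without LV AOB-F replicate 2, the library with 105, the difference was -0.72 (adjusted p = 0.257), and without RV AOB-F replicate 7 the adjusted p was 0.0596.

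In PAB-H the difference between the ventricles was larger but not called. RV libraries had 9.88 to 127 and LV libraries 5.05 to 14.9 normalized counts, a change of 2.45 (SE 0.62, adjusted p = 0.0784), and the RV was higher in 6 of 6 animals. With the animal as a block the change was 2.11 (SE 0.49, adjusted p = 0.0188). In the LV upon AOB Wisp2 stood at 2.11 to 17.9 in AOB-H and 11.7 to 105 in AOB-F, and its change from sham was -1.47 (SE 0.65, adjusted p = 0.194) and 0.89 (SE 0.50, adjusted p = 0.236). Single libraries moved these values, to -0.53 without LV Sham-H replicate 4 and to 0.27 without LV AOB-F replicate 2. The difference of both, 2.35 (SE 0.82), was not called (adjusted p = 0.248) and was 1.42 without LV Sham-H replicate 4. Here edgeR called 0 genes and 1148 had an unadjusted p under 0.05. The difference of Wisp2 between males and females was 1.02 in the RV (SE 0.33, adjusted p = 0.0903) and 0.83 in the LV (SE 0.33, adjusted p = 0.0658), neither of which passed the test. In these comparisons 2.17% and 19.4% of genes were called. DESeq2 gave adjusted p-values of 0.0444 and 0.0314 for the same differences. The other members tested were not called between the sexes.

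**Figure D4:**
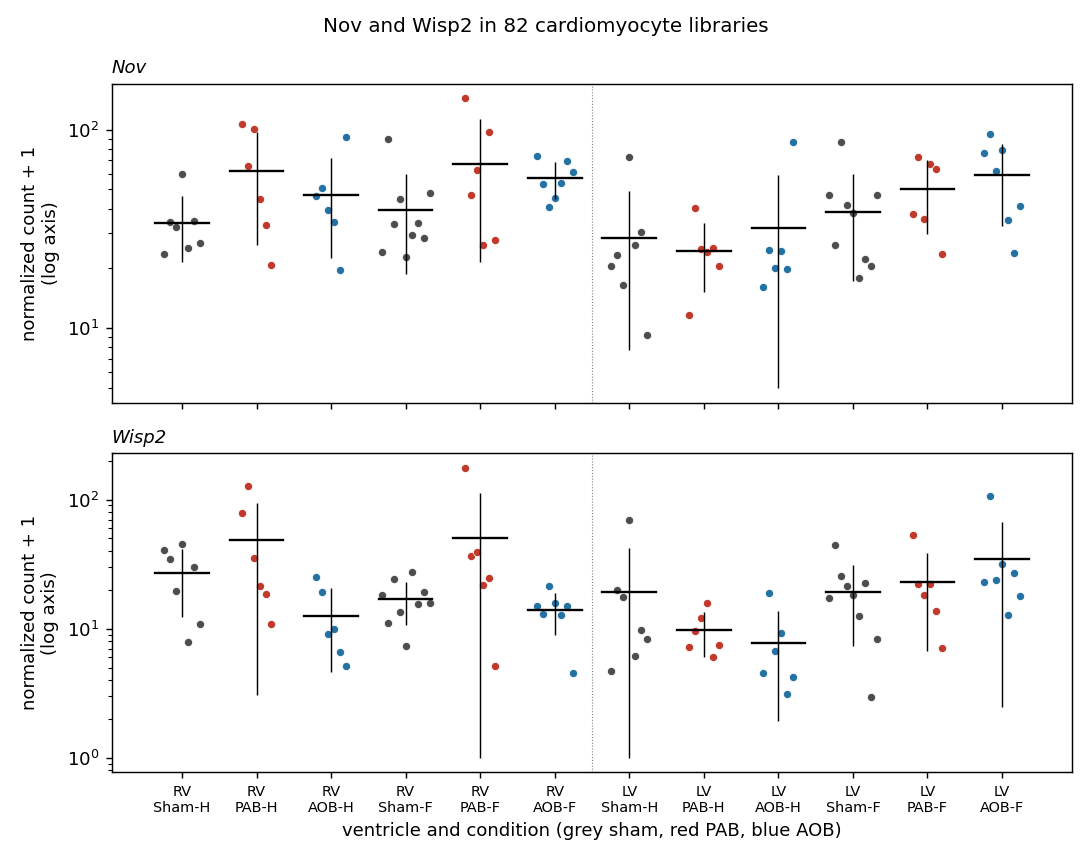
Normalized counts plus 1 (log axis) of Nov, top, and Wisp2, bottom, in each of 82 libraries, by ventricle and condition; points are libraries, horizontal lines the group means and vertical lines 1 SD on either side, ended at 1 where they would pass below a count of 0. The highest libraries of both genes, at 143 and 175, are the same RV PAB-F library, and banded and sham groups overlap throughout.

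Between libraries of the same group, Nov varied with the markers of cells other than cardiomyocytes. Its r with the fibroblast score was 0.57 in the RV (permutation p = 0.00322, adjusted p = 0.0147) and 0.67 in the LV (permutation p = 4e-05, adjusted p = 0.00084), with rho = 0.47 (permutation p = 0.00862) and 0.62 (permutation p = 8e-05). Without the 2 farthest libraries r was 0.55 in both ventricles. With the endothelial, mural and macrophage scores r lay between 0.49 and 0.67, all with an adjusted p under 0.05, and with the cardiomyocyte score it was -0.56 in the RV (permutation p = 0.00405) and -0.42 in the LV (permutation p = 0.0145). Wisp2 rose with the fibroblast score in the RV (r = 0.68, permutation p = 4e-04, adjusted p = 0.0032, and r = 0.50 without the 2 farthest libraries; rho = 0.52, permutation p = 0.00223), whereas in the LV r was 0.37 (permutation p = 0.026, adjusted p = 0.0693). In the LV its r with the macrophage score passed (r = 0.51, permutation p = 0.00217, adjusted p = 0.0116), whereas rho did not (0.37, permutation p = 0.0253, adjusted p = 0.0663), and r was 0.41 without the 2 farthest libraries. The genes most like Nov over the 82 libraries were Efemp1 (r = 0.79), a fibulin of the matrix, Cybrd1 (0.76) and Adgrg2 (0.75). Those most like Wisp2 were Thbs4 (0.61) and Ltbp2 (0.61), both matrix proteins, and Ptgs2 (0.58), an inducible prostaglandin synthase.

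**Figure D5:**
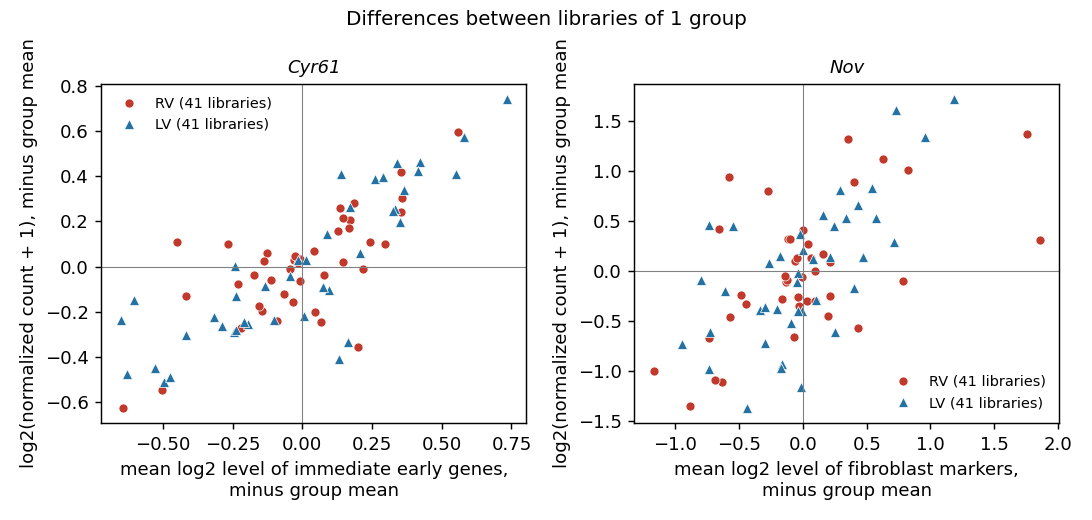
Log2(normalized count + 1) of Cyr61, left, and Nov, right, minus the mean of the group (y axes) against the mean log2 CPM of immediate early genes and of fibroblast markers, minus the mean of the group (x axes); circles are 41 RV and triangles 41 LV libraries. Cyr61 follows its score with r = 0.71 in the RV and 0.85 in the LV, and Nov follows its score with r = 0.57 and 0.67.

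Wisp1 was at the limit of detection. It had between 0 and 17 raw counts in a library and at least 1 in 47 of 82 libraries, and did not enter the main test. The highest counts were 17 in LV AOB-F replicate 7, 12 in RV PAB-F replicate 1, the library that was also highest for Ctgf, Nov and Wisp2, and 8 in LV AOB-F replicate 6. In total it had 21 counts over 6 RV PAB-F libraries and 8 over 9 RV Sham-F libraries, and 27 counts over 7 LV AOB-F and 5 over 9 LV Sham-F libraries. In a fit without the filter on low counts Wisp1 was called between RV and LV in PAB-F and between the sexes in the LV, and in no other comparison. Of 15564 genes in that fit, 7276 and 2083 were called in these 2 comparisons. The PAB-F call rests on 21 counts in the RV, 12 of them in replicate 1, and 2 in the LV.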

How the data were processed

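RNA of cardiomyocytes was depleted of ribosomal RNA and sequenced by the authors. The deposited table holds, for each library, raw counts per gene (Trim Galore, STAR and featureCounts by the submitters' processing notes), normalized counts made by the authors with DESeq2 1.28.1, a signal that entered no test, and FPKM values of the authors, used to compare levels between genes. Tests used the raw counts in edgeR 4.0.16 (R 4.3.3), with TMM factors, filterByExpr, a mean for each of 12 groups over 82 libraries and quasi-likelihood tests, adjusted by Benjamini-Hochberg over 11954 genes. Scores averaged log2 CPM values (prior count 2), and correlations of deviations from group means were tested by 100000 two-sided permutations within groups.

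The members and lists were chosen with earlier results of these data known. Named genes were all members, at most 3 called genes of a list with the largest change in a comparison, the 3 genes most like each member, and, named beyond that rule, markers of other cells and Ccdc80. A result for 1 gene of a list is not reported here.

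Alternatives were DESeq2 1.42.0, its size factors, library totals, no filter, sex as a covariate, the study's criteria (absolute log2 fold change over 1, p at most 0.01, mean over 50), fits to the compared groups, blocks and leaving out each library. RV and LV libraries of 1 animal, paired by the labels' animal numbers, deviated together (median r 0.186 to 0.297 per condition, against -0.0686 to -0.0142 for different animals). No libraries were copies (smallest chi-square per gene 4.04). In a simulation of the RV PAB-F comparison over 11834 genes, 188 of 200 genes given a log2 change of 1.5 were found and 17 others called.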

Additional observations from a re-analysis of the deposited data

Results flagged for a closer look

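Within groups, 9 of 48 sets of libraries (4 members tested in 12 groups) held a library that stood apart from the rest by Dixon's test at the 95% level. Chance alone gives about 1 in 20 only for normally distributed values. The test used untransformed counts, and all 9 sets belonged to the rare genes Nov or Wisp2. The number of sets can therefore not be compared with that rate. For Nov these were RV Sham-H replicate 4 (58.7 normalized counts, the next at 33.6), RV Sham-F replicate 2 (88.6, next 47.02), LV Sham-H replicate 4 (71.8, next 29.7), LV AOB-H replicate 6 (86.0, next 23.9) and LV Sham-F replicate 3 (85.6, next 45.9). For Wisp2 they were RV PAB-F replicate 1 (175, next 38.4), LV Sham-H replicate 4 (67.8, next 19.01), LV PAB-F replicate 1 (52.4, next 21.3) and LV AOB-F replicate 2 (105, next 30.8). LV Sham-H replicate 4 stood apart for both genes.

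For 2 members the responses of the ventricles differed by a test of the difference. The PAB-F response of Ctgf was larger in the RV than in the LV by 1.51 (SE 0.37, edgeR adjusted p = 0.048), with 0.351% of genes called. The change of Cyr61 with age was larger in the LV than in the RV by 0.54 (SE 0.22, edgeR adjusted p = 0.0415), with 41.6% of genes called. Both are on the log2 scale. Either call was lost without the filter on low counts, in the fit to the compared groups and in several fits that left out 1 library.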

How the results depend on the processing

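Of 100 changes of single members 13 were called, and none of these changed sign in any of 325 alternative fits; 5 of the 13 were called under every setting other than leaving out a library. Of 79 changes never called, 23 changed sign in at least 1 fit. The number of members called in RV PAB-F fell from 2 to 1 (Ctgf) without the filter on low counts, with sex as a covariate, under the study's criteria and with the replicate number as a block. In RV against LV it rose from 0 to 1 in PAB-H under the study's criteria (Nov), with DESeq2 and with the animal as a block (both Wisp2), and in Sham-F it fell from 1 to 0 under the study's criteria and rose to 2 in the fit to the compared groups (Ctgf, adjusted p = 0.0302). In AOB-F it fell from 3 to 0 under the study's criteria, since no change reached the size with a mean over 50. For age in the LV and its difference between the ventricles it fell from 1 to 0 without the filter, under the study's criteria and in the fit to the compared groups, and for the PAB-F response, RV minus LV, from 1 to 0 with the size factors of DESeq2, without the filter and in the fit to the compared groups. At PAB-H that difference gave 1 (Ctgf) under the study's criteria. Between the sexes 1 member was called with DESeq2 in each ventricle (Wisp2) and 1 in the LV without the filter (Wisp1). The cause of these changes was not tested. The within-group r of Cyr61 and Nov in the RV was -0.15 and reversed to 0.0021 with library totals, under which the r of Wisp2 with the macrophage score in the RV (0.46) and with the cardiomyocyte score in the LV (-0.40) also passed.

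When each library was left out in turn, the count ranged from 0 to 1 in RV PAB-H (Ctgf lost without RV PAB-H replicate 2), from 1 to 2 in RV PAB-F, from 0 to 1 in RV against LV of PAB-H and from 2 to 3 in PAB-F and AOB-F, from 0 to 2 for age in the LV, and from 0 to 1 for the PAB-F response, for the difference of the changes with age and for either comparison of the sexes. Ctgf in RV PAB-F and LV AOB-F and Cyr61 in RV against LV of the 3 F conditions were called in each of these fits. The adjusted p of Wisp2 in RV PAB-F reached 0.0509 to 0.0673 without RV Sham-F replicates 2, 4, 5, 7, 8 or 9. That of Cyr61 for age in the LV reached up to 0.137 without LV Sham-H replicates 1, 2, 3 or 5 or LV Sham-F replicates 1, 2, 6 or 9.

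The animal block changed no other call than that of Wisp2 in PAB-H. Replicate numbers of different animals mark no shared origin in the labels, and 26 of 64 such pairs deviated together with r over 0.1; with the number as a block Wisp2 in RV PAB-F had a change of 0.99 (adjusted p = 0.196). With library totals the median change over all genes in RV against LV moved from -0.05 to -0.18 in AOB-F, and the share of higher calls in RV PAB-F from 69.1% to 83.3% and in LV AOB-F from 66.3% to 76.9%. In fits to the compared groups the count of all genes called went from 538 to 1642 in RV PAB-H, from 1325 to 2726 in RV PAB-F and from 1541 to 15 in LV AOB-F, and in RV PAB-H to 326 with sex as a covariate and 346 without the filter. In RV against LV it went from 2510 to 1499 in Sham-H and from 954 to 475 in AOB-H, and with the animal as a block to 3887 and 1643. The few counts of Wisp1, Wisp2 and Nov limit what could be detected for them.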

Other observations

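Wisp3 (now Ccn6), the remaining gene of the family, was in the table but not among the members. It had between 0 and 7 raw counts in a library and at least 1 count in 45 of 82 libraries, and was not tested.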
